A study of Homo sapiens with 6 samples.

Results

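RNA-seq compared KYSE70 with NRF2null-KYSE70, and the description that follows is of 9 genes, OLFM1, SCN9A, TSPAN7, NDRG4, FSTL5, LIN7A, NUDT11, FAM19A5 and FOXE1, out of the 58884 genes in the deposited table. They were selected on their normalized counts in the same libraries, as genes far lower in NRF2null-KYSE70, and most are known from neurons. Each was found by its symbol, in its most abundant row where a symbol was repeated. Because these values chose the genes, their levels are given as a description without a test. KYSE70 is a human esophageal squamous cell carcinoma (ESCC) line whose NFE2L2 gene, which encodes NRF2, holds an activating point mutation. NRF2null-KYSE70 was derived from KYSE70 by CRISPR-Cas9 cutting within exon 2 of NFE2L2 and is 1 clone. The cells of both lines were untreated, and each line had 3 libraries. Because the line without intact NRF2 is a single clone, what differs through NRF2 and what differs through the choice of that cell cannot be told apart in these data.

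Levels are normalized counts, that is, reads per gene divided by a size factor for the library, and 1 read was worth 0.889 to 1.14 of them. The libraries held 52072801 to 63975313 reads in genes, and they are numbered by their order in the table, because the columns carried no replicate number. A log2 fold change is NRF2null-KYSE70 over KYSE70 on log2(normalized count + 1). A gene passed the threshold where its limma adjusted p was under 0.05 and its log2 fold change was 1 or more in size. The p-values measured the spread between the libraries named as replicates, which may be technical. In a bulk sample, fewer cells with a transcript and less of it per cell cannot be told apart. NFE2L2 itself kept 61.4% of its KYSE70 level, with 9839, 9906 and 10040 normalized counts in KYSE70 and 5803, 6041 and 6434 in NRF2null-KYSE70, so its transcript was lower but was not lost.

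Neurons and epithelial cells share one genome but use different parts of it, and genes of neuronal function are usually held off in epithelium. The REST repressor complex, DNA methylation and Polycomb repressive complex 2 are known ways of keeping such genes off. Carcinoma cells often transcribe some neuronal genes out of place. Of the 9 genes here, OLFM1 encodes noelin, a secreted glycoprotein that binds AMPA receptor complexes, and FSTL5 and FAM19A5 encode other secreted proteins that are abundant in brain. SCN9A encodes the pore of a voltage-gated sodium channel of pain-sensing neurons. TSPAN7 is a tetraspanin of the cell membrane, and LIN7A is a scaffold with a PDZ domain that works beside CASK. NDRG4 is a cytoplasmic protein of brain and heart. NUDT11 is a hydrolase of diphosphoinositol polyphosphates. FOXE1, a forkhead transcription factor, is known from thyroid and foregut development and is not a neuronal gene, so the neuronal name does not cover it.

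The letters before the start sites of the 9 genes were read first, because a shared promoter feature would be visible there. RefSeq promoter windows (GRCh38.p14), each the 250 bases before a start site, were found for 8 of the 9 genes, with 15 windows among them; TSPAN7 was not matched. The windows of FSTL5, LIN7A and NUDT11 are shown because these genes kept the smallest measured share of their KYSE70 level above 0. CpG dinucleotides are in capitals. The FSTL5 window is chr4:162164001-162164250 on the minus strand, that of the first listed LIN7A start is chr12:80937935-80938184 on the minus strand, and that of NUDT11 is chrX:51496593-51496842 on the minus strand.
FSTL5: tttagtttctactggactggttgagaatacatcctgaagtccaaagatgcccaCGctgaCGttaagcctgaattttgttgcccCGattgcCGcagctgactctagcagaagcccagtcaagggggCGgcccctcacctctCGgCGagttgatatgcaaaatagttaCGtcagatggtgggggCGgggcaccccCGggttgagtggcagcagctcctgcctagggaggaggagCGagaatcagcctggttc
LIN7A: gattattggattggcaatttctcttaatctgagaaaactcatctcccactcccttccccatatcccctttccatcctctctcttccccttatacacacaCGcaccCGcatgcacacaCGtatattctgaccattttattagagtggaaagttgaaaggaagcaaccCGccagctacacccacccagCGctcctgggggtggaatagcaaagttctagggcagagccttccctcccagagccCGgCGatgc
NUDT11: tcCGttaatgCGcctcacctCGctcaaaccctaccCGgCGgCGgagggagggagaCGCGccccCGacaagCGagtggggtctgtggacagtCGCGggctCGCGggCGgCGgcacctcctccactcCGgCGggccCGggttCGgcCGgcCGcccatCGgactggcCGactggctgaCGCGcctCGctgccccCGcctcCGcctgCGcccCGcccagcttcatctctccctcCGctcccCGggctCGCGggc

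The 3 windows differ in CpG content although the genes were lost to a like extent. The FSTL5 window holds 11 CpG, the same as the median of all 35116 RefSeq windows. The LIN7A window holds 7, and that of its second start, which overlaps it, holds 15. The NUDT11 window holds 35, more than 94.2% of all windows. Of the other genes, FAM19A5 stands highest, with 58 CpG before the first of its 2 starts and 34 before the other. SCN9A has 22 and FOXE1 has 26. The 3 OLFM1 windows hold 29, 18 and 28, and the 4 NDRG4 windows hold 3, 40, 29 and 7. The median over the 15 windows was 26. Methylation was not analysed here.

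The core of the antioxidant response element, the DNA site of NRF2 and its small MAF partners, was searched as TGACNNNGC on both strands. It lies in 2 of the 15 windows (13.3%), where 10.9% of all RefSeq windows hold it. These are the windows of FSTL5, where the core starts 140 bases before the start site and lies on the strand opposite the transcript, and of the first listed NDRG4 start, at 182 bases. The matched letters are in capitals.
FSTL5 core: tctagcagaaGCCCAGTCAagggggcggc
NDRG4 core: ggaggagcagTGACAGGGCtggggcaagg
The left part of the REST binding site, searched as TTCAGCACC on both strands, is in 0 of the 15 windows and in 0.288% of all. A match is a run of letters and not a measured binding site, and the absence of one speaks only of these letters in these windows.

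The share of the KYSE70 level that was left in NRF2null-KYSE70 separated the 9 genes. TSPAN7 and NDRG4 kept 10.3% and 11.8%. OLFM1, SCN9A and FOXE1 kept 1.07% to 1.40%. FSTL5, LIN7A and NUDT11 kept 0.225% to 0.274%, and no read of FAM19A5 was found. All 9 genes passed the threshold with lower levels, and in all 9 every NRF2null-KYSE70 library lay below every KYSE70 library. Over all 15994 tested genes, 7.43% passed with lower levels and 31.3% had libraries apart in that direction. Since this contrast chose the genes, nothing is read from their count. The median log2 fold change of the 9 genes was -6.69, or -6.26 with FAM19A5 set at its bound, against -0.01 over all tested genes. Together the 9 genes summed to 9488 to 9776 normalized counts in a KYSE70 library and to 248 to 296 in an NRF2null-KYSE70 library.

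**Figure D1:**
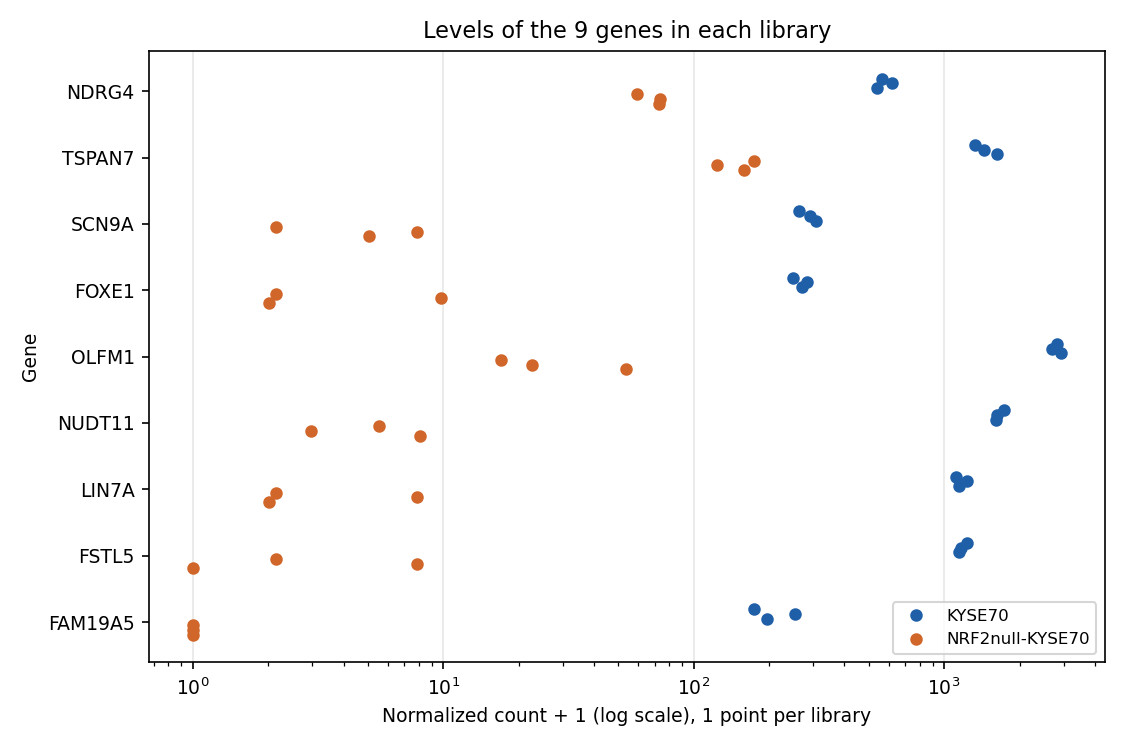
Normalized counts plus 1 of the 9 genes on a log axis, with 1 point for each of the 3 KYSE70 libraries (blue) and the 3 NRF2null-KYSE70 libraries (orange). The lines do not overlap for any gene, TSPAN7 and NDRG4 stay above 50 in NRF2null-KYSE70, and FAM19A5 sits at 0 counts in its 3 libraries there.

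Secreted proteins are described first. OLFM1 (ENSG00000130558) lies on chromosome 9 from 135075422 to 135121180 on the plus strand (hg38), with 6 exons in its canonical transcript. Its normalized counts were 2937, 2704 and 2827 in KYSE70 and 52.7, 21.6 and 16.0 in NRF2null-KYSE70. OLFM1 was the most abundant of the 9 in KYSE70 and kept 88 reads in the NRF2null-KYSE70 libraries together, so a low level was still measurable. Its means were 2823 ± 116 (SD, n = 3) and 30.1 ± 19.8 (SD, n = 3), which left 1.07% (95% exact interval 0.865% to 1.33%). The first NRF2null-KYSE70 library was the highest of the 3, and without it 0.665% was left. The intervals given here cover counting error only.

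FSTL5 (ENSG00000168843) lies on chromosome 4 from 161383897 to 162164004 on the minus strand, with 16 canonical exons over 780.1 kb. It had 1149, 1170 and 1237 normalized counts in KYSE70. The NRF2null-KYSE70 libraries held 0, 7 and 1 reads of it. FSTL5 thus went from a level near the middle of the tested genes to the edge of detection, with the reads that remained mostly in 1 library. The share left was 0.225% (0.101% to 0.462%), and it was 0.0482% without that second library. The log2 fold change of -8.85 was the lowest of all 15994 tested genes in the main fit, with 1 added to each count. It was not the lowest with DESeq2, where FSTL5 was at -8.74 and FAM19A5 at -10.1.

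FAM19A5 (ENSG00000219438, also called TAFA5) lies on chromosome 22 from 48489553 to 48850912 on the plus strand, with 4 canonical exons. KYSE70 libraries gave 195, 254 and 173 normalized counts, and all 3 NRF2null-KYSE70 libraries had 0 reads. With 3 reads assumed in each of those libraries, the fall was at least 66.1-fold. The counting interval allows a share of up to 0.614%. No other gene of the 9 was without a read in NRF2null-KYSE70. Its KYSE70 level was also the lowest by count, so this depth cannot show whether its share left was smaller than that of FSTL5.

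Membrane proteins came next. SCN9A (ENSG00000169432) lies on chromosome 2 from 166195185 to 166376001 on the minus strand and has 27 canonical exons. SCN9A had 307, 291 and 263 normalized counts in KYSE70, against 4, 7 and 1 reads in NRF2null-KYSE70. The channel transcript was low in KYSE70 for its length and nearly absent in the clone. The share left was 1.40% (0.743% to 2.53%), and without the second library it was 0.906%.

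TSPAN7 (ENSG00000156298) lies on chromosome X from 38561542 to 38688920 on the plus strand, with 8 canonical exons. Its normalized counts were 1624, 1441 and 1322 in KYSE70 and 158, 123 and 172 in NRF2null-KYSE70. TSPAN7 was lower but was not silent, since 432 reads were left over the 3 NRF2null-KYSE70 libraries. The share left was 10.3% (9.20% to 11.2%), a log2 fold change of -3.28.

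Scaffolds and cytoplasmic proteins behaved in both ways. LIN7A (ENSG00000111052) lies on chromosome 12 from 80792520 to 80937934 on the minus strand, with 6 canonical exons. LIN7A had 1143, 1229 and 1116 normalized counts in KYSE70, against 1, 7 and 1 reads in NRF2null-KYSE70. As with FSTL5, the second library held most of the remaining reads. The share left was 0.259% (0.122% to 0.509%), or 0.0927% without that library.

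NDRG4 (ENSG00000103034) lies on chromosome 16 from 58462846 to 58513628 on the plus strand, with 15 canonical exons and 55 annotated transcripts. It had 541, 618 and 564 normalized counts in KYSE70 and 72.0, 72.6 and 58.2 in NRF2null-KYSE70. NDRG4 fell the least of the 9 genes and varied little within either line. The share left was 11.8% (10.2% to 13.7%), a log2 fold change of -3.07.

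NUDT11 (ENSG00000196368) lies on chromosome X from 51490011 to 51496592 on the minus strand and has 2 canonical exons and 1 annotated transcript. Its normalized counts were 1612, 1623 and 1739 in KYSE70, against 7, 2 and 4 reads in NRF2null-KYSE70. This enzyme transcript was abundant in KYSE70, and all 3 libraries of the clone were near 0. The share left was 0.274% (0.145% to 0.466%).

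The transcription factor FOXE1 (ENSG00000178919) lies on chromosome 9 from 97853226 to 97856717 on the plus strand and is a gene of 1 exon. FOXE1 had 269, 282 and 248 normalized counts in KYSE70, against 1, 9 and 1 reads in NRF2null-KYSE70. The second library alone held 9 of the 11 reads, and the share left was 1.37% (0.709% to 2.56%) with it and 0.405% without it. FOXE1 and OLFM1 are on the same chromosome but lie 37.2 Mb apart.

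**Figure D2:**
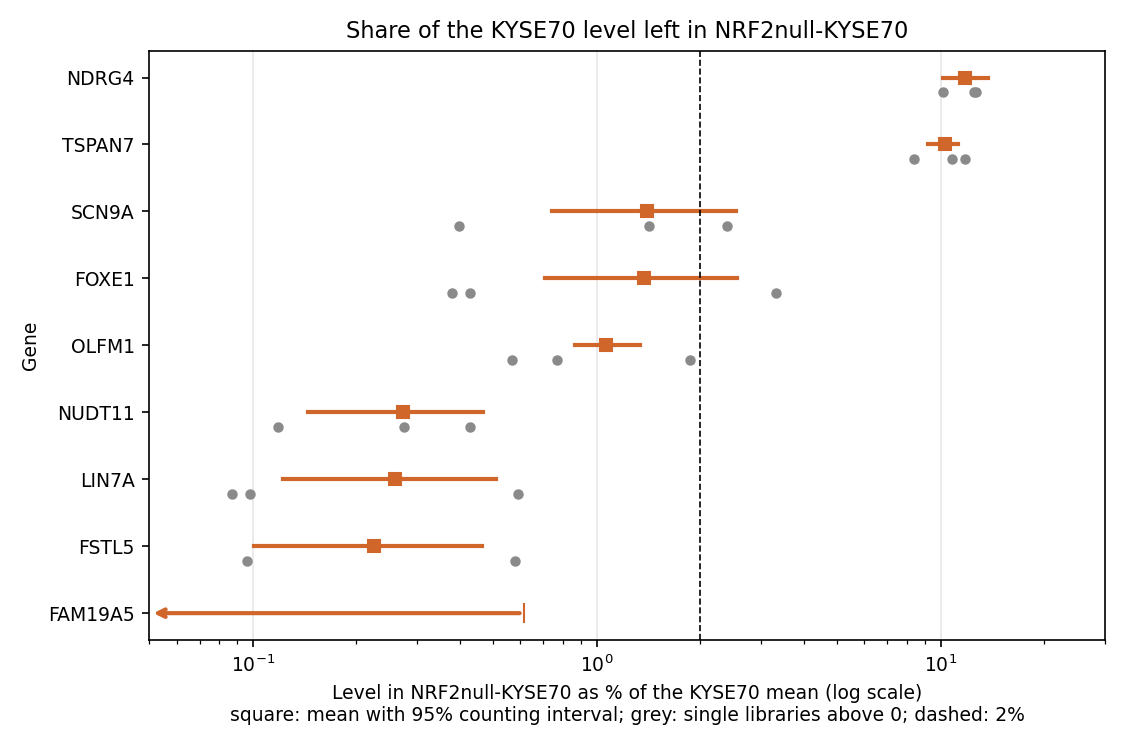
Level of each gene in NRF2null-KYSE70 as a percent of its KYSE70 mean, on a log axis. Squares are means over 3 libraries with 95% exact counting intervals, grey points are single libraries above 0, and the arrow for FAM19A5 points down from its upper limit of 0.614%. TSPAN7 and NDRG4 stand apart near 10%, to the right of the dashed line at 2%.

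The few reads left in NRF2null-KYSE70 were not in 1 library for all genes. The second library held the most reads of SCN9A, FSTL5, LIN7A and FOXE1, whereas the first held the most of OLFM1 and NUDT11. The number of the 9 genes with at most 3 reads was 4, 2 and 5 in libraries 1, 2 and 3. Among all tested genes ranked by log2 fold change, FSTL5 was at rank 1, LIN7A at 4, NUDT11 at 5 and FAM19A5 at 10, while TSPAN7 was at 180 and NDRG4 at 202.

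Before the loss, the 9 genes spanned a wide range of levels. In KYSE70, per kb of canonical transcript, OLFM1 was highest at 1015 normalized counts, followed by TSPAN7 at 840 and NUDT11 at 696. FSTL5 stood at 247, LIN7A at 189.9 and NDRG4 at 179. FAM19A5 stood at 82.1, FOXE1 at 76.3 and SCN9A lowest at 29.4. The libraries of LIN7A and NDRG4 overlapped, as did those of FAM19A5 and FOXE1, and at every other step the libraries of the neighbouring genes did not overlap. The order depended on the length used. Per kb of all annotated exons, NUDT11 came first at 696, TSPAN7 at 498 and OLFM1 at 461 overlapped, and NDRG4 moved down to 59.5.

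Reads of overlapping genes could be mixed with those of some of the 9, since the use of strand in counting was not stated. The gene ENSG00000249568, a long non-coding RNA antisense to FSTL5, went from 94.0 ± 11.5 (SD, n = 3) normalized counts to 0. ACSS3, which overlaps exons of LIN7A, had 13.1 ± 8.73 (SD, n = 3) and 0.338 ± 0.586 (SD, n = 3). SCN1A-AS1, which overlaps exons of SCN9A, had 4.95 ± 4.31 (SD, n = 3) and 1.90 ± 3.30 (SD, n = 3). In KYSE70 these levels were small beside those of FSTL5, LIN7A and SCN9A. In NRF2null-KYSE70 the same did not hold for SCN1A-AS1, since SCN9A itself had only 4.02 ± 2.86 (SD, n = 3) there. LIN7A had 3.01 ± 3.34 (SD, n = 3) there. Whether the few reads left of SCN9A include reads of SCN1A-AS1 was not tested. The share of 50-base windows of the canonical transcript also found in transcripts of another gene was 37.0% for TSPAN7, all of it in an overlapping gene listed at 0, and 11.5% for NUDT11, in NUDT10. It was 12.1% for FSTL5, all in the antisense gene above, 7.503% for SCN9A and 4.04% for LIN7A, in ACSS3. For OLFM1, NDRG4, FAM19A5 and FOXE1 it was 0%.

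The genes near each of the 9 were compared next, to show whether a stretch of chromosome was lower as a whole. For each gene, the 5 tested protein-coding genes on each side were taken, 90 in all. Of these 90, 9 were past the threshold with lower levels and 4 with higher levels, where 7.43% and 7.23% of all tested genes were. The median log2 fold change of the 90 was 0.04. The neighbourhood of LIN7A was the lowest, with a median of -1.20 and 5 of 10 genes lower. Those were SYT1 (-1.70), METTL25 (-1.81), TMTC2 (-1.76), RASSF9 (-2.28) and NTS (-3.29), which lie 1341 to 4936 kb away. SYT1 no longer passed without the second KYSE70 library. None of the genes nearer to LIN7A passed. PTPRQ, the nearest at 112 kb, was at -0.70, followed outward by OTOGL (0.35), PPP1R12A (-0.16), PAWR (0.56) and CCDC59 (-0.50).

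NUDT11 lost its nearest neighbour as well. NUDT10, its close relative 152 kb away on the same chromosome, had 72.9, 34.5 and 67.5 normalized counts in KYSE70 and no read in NRF2null-KYSE70, which is at least 18.6-fold lower. On the log2 scale it was at -5.82 with an SE of 0.63 (limma adjusted p = 5.38e-06), and 11.5% of the NUDT11 windows are shared with it, so reads could be assigned between the pair. The other 9 neighbours of NUDT11 were between -0.37 and 0.67 and none passed.

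Around SCN9A, 3 of 10 genes were lower, namely IFIH1, GRB14 and LRP2, with KYSE70 means from 24.8 to 70.1 normalized counts, and the median was 0.04. IFIH1 no longer passed in 6 of 13 alternatives. Around FSTL5 the direction was the opposite. FNIP2 (1.05), C4orf45 (2.15) and RAPGEF2 (1.21) were higher, the median was 0.52, and the nearest neighbour was 946 kb off. Near TSPAN7 only PRRG1 passed, with a higher level (1.89). No gene passed near OLFM1, NDRG4, FAM19A5 or FOXE1, where the medians lay between -0.24 and 0.08, even though the nearest tested gene to NDRG4, SETD6, was 1.85 kb away. Some of their neighbours still differed below the limit on the fold change, among them C9orf116 (-0.997) and COL5A1 (-0.78) near OLFM1, GINS3 (-0.89) near NDRG4 and TRMO (0.85) near FOXE1.

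**Figure D3:**
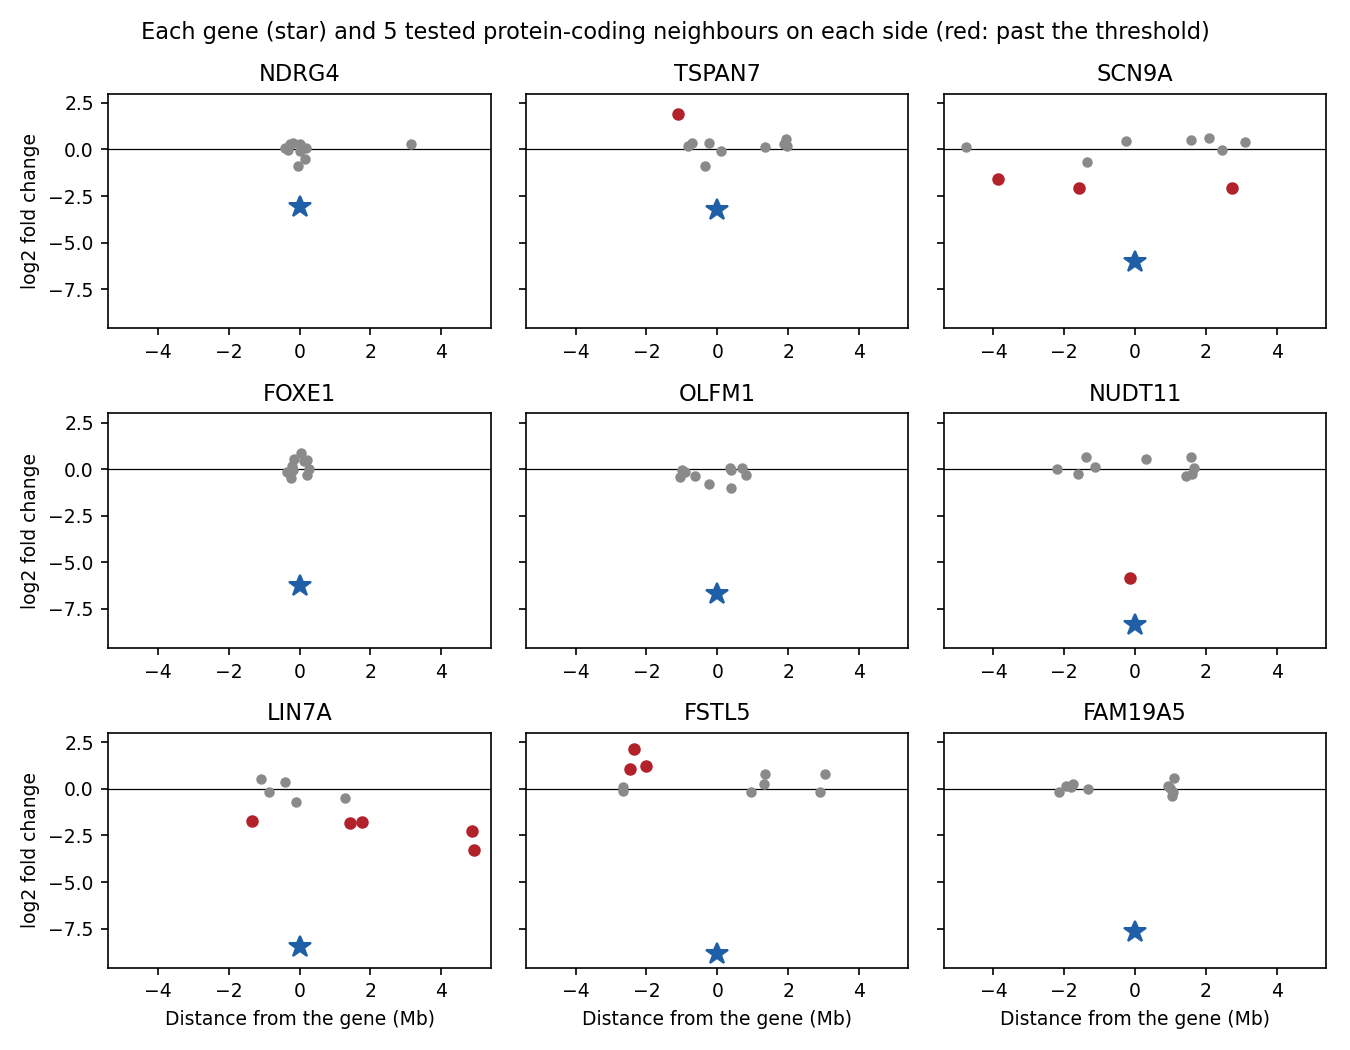
Log2 fold change of each of the 9 genes (star) and of 5 tested protein-coding genes on each side (points) against distance from the gene in Mb. Points past the threshold are red. Only around LIN7A are 5 of 10 neighbours lower past the threshold, at 1341 to 4936 kb from it, while the nearer ones do not pass. No neighbour of FAM19A5, FOXE1, OLFM1 or NDRG4 is past the threshold.

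Relatives of the 9 genes were then examined, to show whether a gene was lower alone or with its family. Of 66 relatives 45 were tested, and 8 were lower (17.8%) and 8 higher (17.8%), against 7.43% and 7.23% of all tested genes. Their median log2 fold change was -0.08. The families went different ways. NDRG1, a relative of NDRG4 known for its response to stress and low oxygen, fell further than NDRG4 itself, from 4678, 4914 and 5494 to 70.0, 119 and 135 normalized counts (log2 fold change -5.58, SE 0.18, limma adjusted p = 1.02e-10). NDRG2 and NDRG3 were not past the threshold, with log2 fold changes of -0.92 and -0.19.

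In the olfactomedin family, OLFML1 (-3.44) and OLFML2B (-1.73) were lower beside OLFM1, both from under 100 normalized counts, whereas OLFM2 had 1489 ± 92.2 (SD, n = 3) and 1412 ± 54.4 (SD, n = 3). Among the sodium channels, SCN4A, that of skeletal muscle, rose from 75.5 ± 9.48 (SD, n = 3) to 269 ± 39.2 (SD, n = 3). SCN8A, at 79.4 ± 7.39 (SD, n = 3) and 68.6 ± 16.3 (SD, n = 3), did not pass.

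None of the 18 tested relatives of TSPAN7 was lower past the threshold. TSPAN13 (1.38) and TSPAN15 (2.44) were higher, and the most abundant ones, CD9, TSPAN3, CD63 and TSPAN14, did not pass at 0.58, 0.32, -0.81 and 0.11. In the follistatin family, FSTL5 was lost while FST, an inhibitor of activin, rose from 914, 925 and 898 to 4756, 4472 and 4388 normalized counts (log2 fold change 2.31, SE 0.059, limma adjusted p = 9.51e-12). FSTL1 also rose (2.66), from 42.6 ± 10.8 (SD, n = 3) to 270.0 ± 31.9 (SD, n = 3).

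LIN7A has 2 relatives, and neither passed. LIN7C, the most abundant of the family, had 5635 ± 178 (SD, n = 3) and 7412 ± 303 (SD, n = 3) normalized counts, and LIN7B had 99.9 ± 36.1 (SD, n = 3) and 115 ± 13.7 (SD, n = 3). NUDT3 and NUDT4, which hydrolyse the same class of inositol phosphates as NUDT11, did not pass either (-0.01 and -0.19). Of the forkhead genes related to FOXE1, FOXA1 (-1.47), FOXC2 (-1.08) and FOXF1 (-1.15) were lower and FOXC1 (1.02), FOXD1 (1.57) and FOXQ1 (1.01) were higher. FOXC1, FOXC2 and FOXQ1 were close to the limit and no longer passed in 3, 2 and 4 of 14 alternatives.

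**Figure D4:**
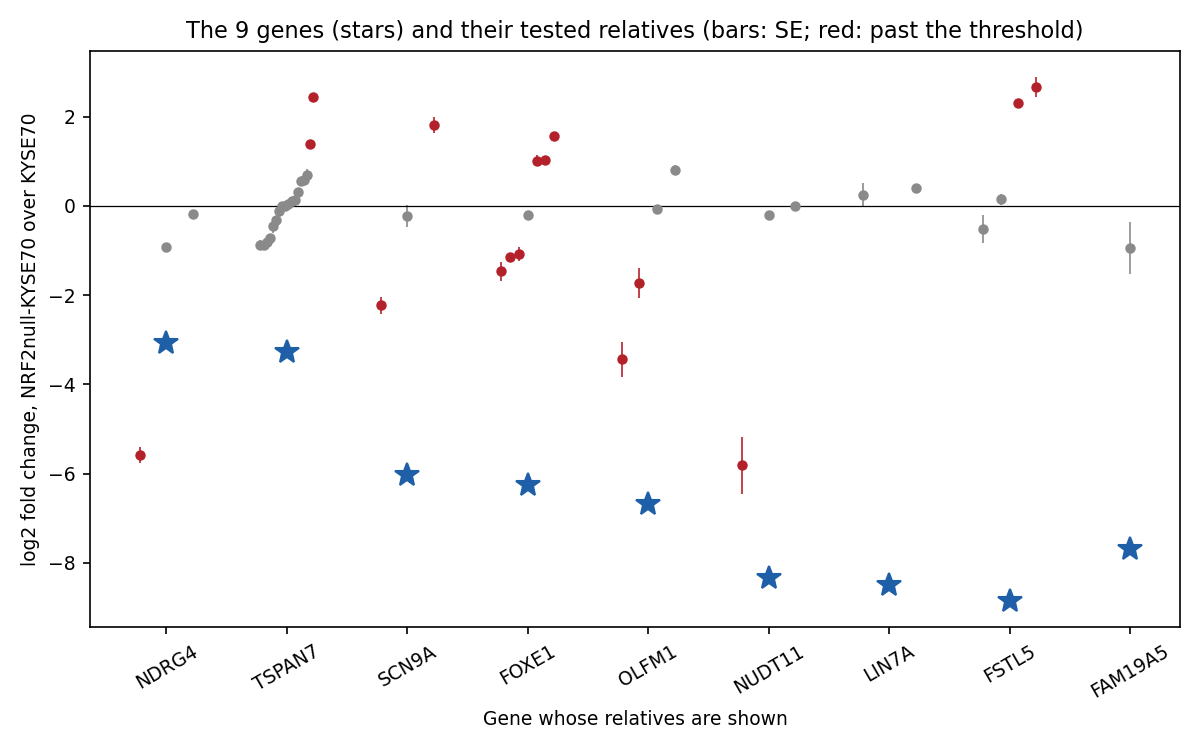
Log2 fold change of each of the 9 genes (star) and of its 45 tested relatives (points with SE bars from limma), with red for relatives past the threshold. Only NDRG1 lies below its star, at -5.58 against -3.07 for NDRG4.

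Genes that work with the 9 were mostly less changed. Of 41 partner and pathway genes 34 were tested, with 3 lower and 3 higher (8.82% each) and a median of -0.11. Among all tested genes, 7.43% were lower and 7.23% were higher past the threshold. For LIN7A, the adaptor APBA1 fell (-2.22) from 308 ± 42.7 (SD, n = 3) to 67.3 ± 22.5 (SD, n = 3), and the postsynaptic scaffold DLG4 rose (1.08). MPP5 and DLG1, other scaffolds of this kind, did not pass at 0.72 and 0.62. Of the genes for SCN9A, FGF13, an intracellular partner of sodium channels, fell (-3.39) from 103 ± 15.5 (SD, n = 3) to 11.3 ± 10.1 (SD, n = 3). RTN4, the Nogo protein that was listed for OLFM1, and ITPK1, a kinase of the inositol phosphate pathway listed for NUDT11, did not pass at 0.47 and 0.51.

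Among genes of the thyroid programme of FOXE1, TG, which encodes thyroglobulin, fell from 40.1 ± 9.74 (SD, n = 3) to 1.37 ± 0.514 (SD, n = 3). NKX2-1 rose from 24.8 ± 15.0 (SD, n = 3) to 95.5 ± 21.1 (SD, n = 3) and HHEX rose (1.17). All of this took place at low levels except for HHEX, and TSHR, the thyrotropin receptor, had no read in any library. Over the 6 thyroid markers the sum was 239 to 315 in KYSE70 and 331 to 380.2 in NRF2null-KYSE70. Most of that sum was PAX8, which did not pass (0.20), at 217 ± 24.7 (SD, n = 3) and 248 ± 5.45 (SD, n = 3).

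A list of 50 general neuronal and neuroendocrine markers was used to see whether the 9 genes were part of a wider neuronal level. Of these, 22 were tested, 5 were lower (22.7%), 2 were higher (9.09%) and 15 were neither, with a median log2 fold change of -0.18. Among all tested genes, 7.43% were lower and 7.23% were higher past the threshold. The lower ones were NEFL (-3.20), STMN3 (-2.83), NEFM (-2.20), VGF (-1.71) and SYT1 (-1.70). NEFL, the light neurofilament chain, was very abundant in KYSE70, with 96388, 92243 and 92422 normalized counts, and still had 10560, 9189 and 10863 in NRF2null-KYSE70. MAP2 (1.01), a microtubule protein of dendrites, and DLG4 (1.08) were higher. MAP2 no longer passed after quantile normalization, nor did DLG4 without the third NRF2null-KYSE70 library. UCHL1, ENO2, MAP1B and VAMP2 did not pass, at -0.14, -0.32, 0.87 and 0.73. SYT4, INA and NEUROD1 had no read in any library, so both lines lacked several defining neuronal and neuroendocrine genes. The summed level of the list was 149136 to 152608 in KYSE70 and 70381 to 72746 in NRF2null-KYSE70. NEFL alone went from 93684 to 10204, a larger fall than that of the whole sum.

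**Figure D5:**
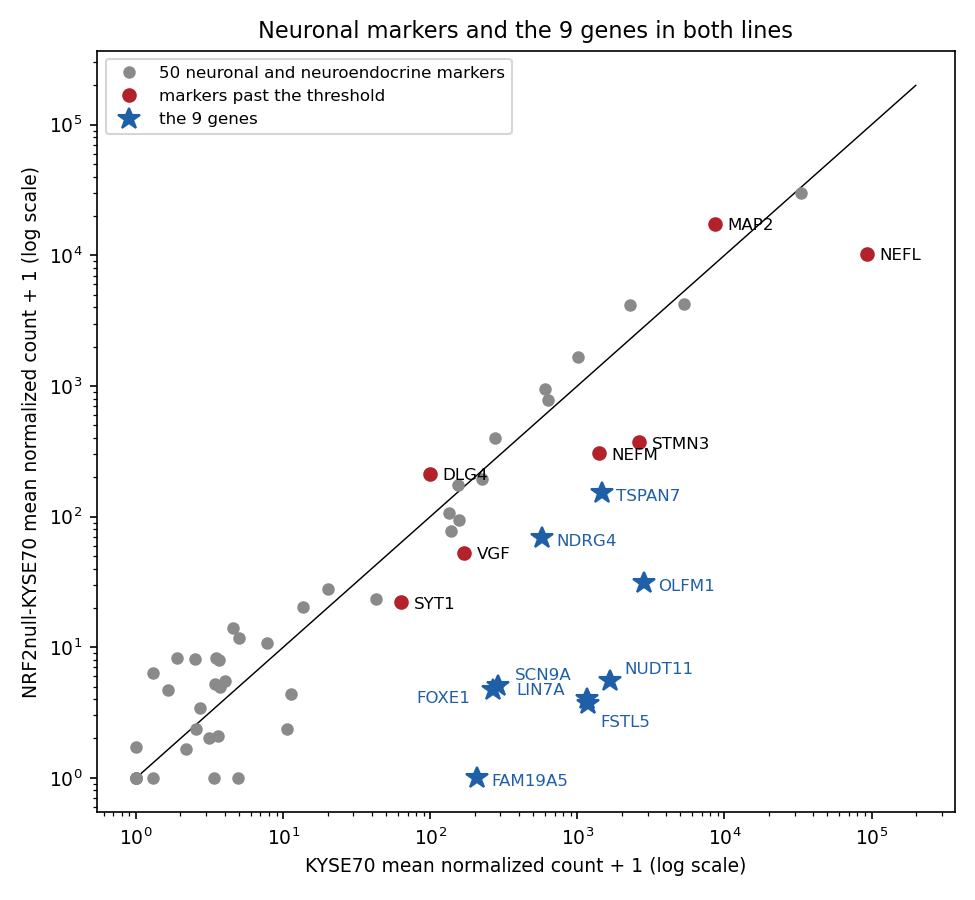
Mean normalized count plus 1 in KYSE70 and in NRF2null-KYSE70, both on log axes, for 50 neuronal and neuroendocrine markers (grey, red where past the threshold) and the 9 genes (blue stars). The line marks equal levels; most markers lie near it, NEFL falls from 93684 to 10204, and 7 of the 9 stars lie far below at 1.40% of the KYSE70 level or less.

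Markers of other cell types were measured beside these. Of 9 sensory neuron markers 3 were tested, PRPH was lower (-1.18) from 27.8 ± 4.05 (SD, n = 3) but no longer passed in 6 of 13 alternatives, and SCN10A and CALCA were at 0 in all libraries, with a summed level of 197 to 224 in KYSE70 and 126 to 172 in NRF2null-KYSE70. Of 7 fibroblast markers 3 were tested, and COL1A1 (-1.16) and COL3A1 (-4.79) were lower. THY1, the most abundant of the list, did not pass (0.15), at 2429 ± 105 (SD, n = 3) and 2702 ± 143 (SD, n = 3). PDGFRB, which was not tested, went from 0 to 14.3 ± 1.94 (SD, n = 3). The defining DCN and COL1A2 were at 0 in all libraries. The fibroblast sum was 3851 to 3973 in KYSE70 and 3039 to 3452 in NRF2null-KYSE70. All 12 squamous epithelial markers were measured in both lines and 1 passed, KRT14 with a higher level (1.74) from a low 46.4 ± 17.5 (SD, n = 3). By limma adjusted p under 0.05 alone, 6 of the 12 were lower and 6 were higher. SFN (-0.93), TP63 (-0.92), KRT5 (-0.75) and DSG3 (-0.74) were on the lower side without passing the limit on the fold change. KRT6A (0.69), KRT17 (0.66), CDH1 (0.60) and EPCAM (0.30) were on the higher side without passing it. The sum over the 12 markers was 378792 to 385796 in KYSE70 and 287937 to 300512 in NRF2null-KYSE70. The part of these marker levels in those of the 9 genes was not tested.

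Transcripts of known repressors of neuronal genes were compared as well. Of 16 genes of the REST complex and its cofactors, 0 passed the threshold by limma, and 0 did by DESeq2 or edgeR. By limma adjusted p under 0.05 alone, 12 of the 16 differed, 4 lower and 8 higher, without passing the limit on the fold change. The log2 fold changes of the 16 were at most 0.41 in size. REST itself had 3395, 3245 and 3022 normalized counts in KYSE70 and 4130, 3785 and 3768 in NRF2null-KYSE70 (log2 fold change 0.27). HDAC2, SIN3A, HDAC1 and CTDSP2, the most abundant of the list, were at 0.09, 0.35, 0.13 and -0.32. Of 21 tested genes of DNA methylation and Polycomb repressive complex 2, 1 passed, TET1 with a lower level (-1.07), which encodes an enzyme that oxidises methylated cytosine. TET1 no longer passed without the second NRF2null-KYSE70 library. RBBP7, DNMT1, RBBP4 and SUZ12, the most abundant of the list, were at 0.14, 0.02, 0.24 and 0.21. Several others differed by nearly as much as TET1 without passing the limit on the fold change, namely TDG (-0.95), MBD2 (-0.92) and MBD1 (-0.91), each with a limma adjusted p under 0.05.

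Loss of a transcript to near silence was rare, and 7 of the 9 genes were in that class. Near silence was taken as at most 2% of the KYSE70 level for a gene with a KYSE70 mean of at least 100. It was met by 48 of 11933 genes (0.402%), of which 42 were protein-coding, on 16 chromosomes. In the other direction 19 of 11838 genes (0.161%) were near silence in KYSE70. CADPS2 at 1.89% was the last gene inside the limit and GNAI1 at 2.13% the first outside, and SCN9A at 1.40% and FOXE1 at 1.37% were the members closest to it. TSPAN7 and NDRG4 did not meet it. The same contrast chose the 9 genes, so nothing is read from their count in this class.

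Genes of this class lay on 16 chromosomes, in part close together, as with TMX4, PLCB1 and PLCB4 on chromosome 20 or ROBO1, ROBO2 and GBE1 on chromosome 3. The closest to any of the 7 was ZXDB, 6.10 Mb from NUDT11. The nearest to OLFM1 was TLR4, 17.4 Mb away, and the nearest to LIN7A was ZNF268 at 52.2 Mb. SCN9A was the only gene of the class on chromosome 2. NUDT11 was on the chromosome with the most by number, since 8 of 380 eligible genes on chromosome X were near silence (2.11%). By share, chromosome 18 was as high (4 of 186, 2.15%) and chromosome 20 was next (5 of 305, 1.64%). TSPAN7, also on X, kept 10.3%.

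The genes closest to the median profile of the 9 were found by the root mean square difference, in log2 units over the 6 libraries. The search covered 10992 other protein-coding genes with a KYSE70 mean of at least 100. The closest were TUSC1 (0.191), ZNF711 (0.287), PTN (0.294), TCF4 (0.310) and ZNF485 (0.343). The 9 genes themselves lay farther from it, from 0.433 for FAM19A5 to 2.87 for NDRG4, so a close match is to the median and not to each gene. All but TCF4 had 0 or 1 read in NRF2null-KYSE70, where the log2 value is set mainly by the 1 added to each count. TUSC1 had 174, 156 and 132 normalized counts in KYSE70 and no read in NRF2null-KYSE70, at least 49.1-fold lower. PTN, which encodes the secreted factor pleiotrophin, had 179.6, 208 and 142 and no read, at least 56.3-fold lower. TCF4, a transcription factor of the E-protein family, was the most abundant of the 5 and went from 4457 ± 211 (SD, n = 3) to 24.5 ± 5.59 (SD, n = 3). ZNF711 and ZNF485 each had 1 read in the NRF2null-KYSE70 libraries together.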

How the data were processed

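RNA was sequenced from 3 KYSE70 and 3 NRF2null-KYSE70 libraries. The authors trimmed reads (cutadapt 1.12), aligned them with STAR (2.6.90c) to hg38, counted them per gene with featureCounts (1.5.1) and normalized them with DESeq2; names and versions are those of the submitters' processing notes. The deposited values are a signal in normalized counts (reads divided by a size factor). Strand use in counting was not stated. Every value was a whole multiple of 1 read within 0.1 (100% of values), so whole reads were recovered.

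Differences were fitted with limma (3.58.1, R 4.3.3) (trend fit) on log2 of the normalized count plus a pseudocount of 1, over the 15994 genes with a mean of at least 10, and adjusted by the Benjamini-Hochberg method. The fit was checked on simulated data. Tried beside it were pseudocounts of 0.1 and 5, omission of the filter or a filter at 50, TMM and quantile scaling, DESeq2 (1.42.0) and edgeR (4.0.16) on the recovered reads, and each library left out. Positions are from GENCODE v44, with 58472 identifiers matched. Shares left have exact Clopper-Pearson intervals (95%) from pooled reads.

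The members and gene lists were chosen with earlier results of these data known. Named were the 9 genes, list genes past the threshold and up to 4 abundant ones not past it, neighbours past the threshold, and 5 genes closest to the median profile. Any further gene in the text was picked with its values known. Some genes on the lists are counted but not reported here by name.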

Additional observations from a re-analysis of the deposited data

How the results depend on the processing

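Direction was kept for all 9 genes under every alternative run. The median log2 fold change of the 9 was -6.69, and it was -6.85 with a pseudocount of 0.1, -5.39 with 5 and -6.53 with edgeR. With each library left out it ranged from -7.17 to -6.34. FAM19A5, with no read in NRF2null-KYSE70, was at -10.1 with DESeq2, -10.7 with edgeR and -5.39 with a pseudocount of 5. Genes past the threshold numbered 2344, or 1511 with a filter at a mean of 50, where fewer genes were tested. Neighbours past the threshold numbered 13, or 8 with that filter and 32 of 180 with 10 genes on each side. Genes near silence in either line numbered 67, or 32 with a mean of at least 500. The DNA methylation and Polycomb count was 0 to 1 with each library left out. Relatives past the threshold ranged from 14 to 16, partner genes from 5 to 7 and neuronal markers from 6 to 9, and the REST list stayed at 0. No paired analysis was possible because the columns carry no replicate numbers. At this depth a gene with fewer than 4 reads in each library cannot be told from silence.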
